A study of Mus musculus with 61 samples.

Results

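Collagen genes were followed in 2 exocrine organs of male NOD mice, the lacrimal glands, which come under autoimmune attack in males of this strain, and the salivary glands, which in males are seldom affected. The labels give no sex, and on all 61 arrays the Y-linked gene Eif2s3y lay above the floor of detection described below and Xist, the RNA of the inactive X chromosome, below it. Members were the genes whose symbol is Col, a number, the letter a and a number, with no further letters. There were 42 such genes, measured by 82 probe sets, among 18194 genes that had a probe set of a single symbol on 61 Affymetrix arrays. Where a gene had several probe sets, the one with the greatest average across the 61 arrays stood for it.

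The mice were untreated, or received weekly intraperitoneal injections from 8 weeks of age of LTBR-Ig (named mLTBR-mIgG1 in the labels) or of MOPC-21. LTBR-Ig is the mouse lymphotoxin-beta receptor joined to a mouse IgG1 Fc and acts as a soluble decoy, and MOPC-21 is the control mouse antibody. Untreated mice were sampled at weeks 8, 12, 14 and 16 of age, and mice of both treatments at weeks 12 and 16, that is after 4 and 8 weeks of injections. Each of the 16 groups held 4 arrays, apart from untreated lacrimal glands of week 12 (n = 3) and salivary glands of week 12 with LTBR-Ig (n = 2). Both lacrimal glands of a mouse were combined for 1 array. The salivary samples joined the glands of the neck region after the lymph nodes had been dissected away. For the salivary arrays no source used here says that they came from separate animals, so their p-values measure the spread between arrays, which may be technical.

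Collagens are the main structural proteins of the extracellular matrix. Fibrillar collagens such as types I, III and V form the tensile fibers of the stroma between glandular lobules, type IV collagens form the network of the basement membrane beneath acini, ducts and vessels, and type VI collagens form beaded microfilaments around cells. Other members decorate fibrils, anchor epithelia or span cell membranes. Fibroblasts make most fibrillar collagen, whereas epithelial, endothelial and other cells contribute basement membrane collagens.

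Promoter windows are shown for members that carry the comparisons: Col1a2 and Col3a1 as fibrillar genes that fell with age in both glands, Col5a3 as the gene with the largest salivary fall, the neighbours Col4a1 and Col4a2, and Col6a4, which went the other way in lacrimal glands. Each window runs from 250 bases before to 50 bases after the annotated start (RefSeq, build GRCm38.p6, strand of the gene, 5′ to 3′). Capitals mark the letters CCAAT or TATAAA on either strand, so that CCAAT on the opposite strand reads ATTGG.
Col1a2, chr6:4505368-4505667, plus strand: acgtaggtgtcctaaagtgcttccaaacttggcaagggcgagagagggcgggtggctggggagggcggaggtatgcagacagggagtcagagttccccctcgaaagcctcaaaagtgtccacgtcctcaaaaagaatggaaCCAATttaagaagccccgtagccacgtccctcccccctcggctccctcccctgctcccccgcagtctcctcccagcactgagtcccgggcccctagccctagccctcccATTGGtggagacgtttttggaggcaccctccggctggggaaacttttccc
Col3a1, chr1:45311288-45311587, plus strand: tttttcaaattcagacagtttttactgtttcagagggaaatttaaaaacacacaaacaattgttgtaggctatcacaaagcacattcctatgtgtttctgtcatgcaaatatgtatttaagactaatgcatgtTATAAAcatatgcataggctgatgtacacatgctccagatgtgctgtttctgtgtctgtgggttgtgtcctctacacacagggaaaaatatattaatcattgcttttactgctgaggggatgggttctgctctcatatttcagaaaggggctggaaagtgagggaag
Col4a1, chr8:11312777-11313076, minus strand: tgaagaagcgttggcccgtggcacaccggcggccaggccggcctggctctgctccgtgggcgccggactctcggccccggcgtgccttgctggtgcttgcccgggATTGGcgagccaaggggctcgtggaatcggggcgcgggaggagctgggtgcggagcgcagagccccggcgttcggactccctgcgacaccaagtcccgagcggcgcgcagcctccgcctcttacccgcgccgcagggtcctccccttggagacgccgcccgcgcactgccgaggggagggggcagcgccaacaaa
Col4a2, chr8:11312555-11312854, plus strand: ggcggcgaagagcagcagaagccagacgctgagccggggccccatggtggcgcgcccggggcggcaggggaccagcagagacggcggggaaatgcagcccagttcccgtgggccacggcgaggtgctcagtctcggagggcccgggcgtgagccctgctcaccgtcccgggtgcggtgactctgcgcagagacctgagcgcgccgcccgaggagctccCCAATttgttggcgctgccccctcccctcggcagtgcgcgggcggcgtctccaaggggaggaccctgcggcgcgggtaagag
Col5a3, chr9:20815018-20815317, minus strand: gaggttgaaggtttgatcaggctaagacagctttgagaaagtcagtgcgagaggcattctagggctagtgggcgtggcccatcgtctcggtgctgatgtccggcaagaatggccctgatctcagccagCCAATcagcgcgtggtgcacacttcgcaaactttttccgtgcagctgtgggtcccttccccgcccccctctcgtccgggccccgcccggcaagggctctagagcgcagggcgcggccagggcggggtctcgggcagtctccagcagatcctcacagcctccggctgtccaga
Col6a4, chr9:106096642-106096941, minus strand: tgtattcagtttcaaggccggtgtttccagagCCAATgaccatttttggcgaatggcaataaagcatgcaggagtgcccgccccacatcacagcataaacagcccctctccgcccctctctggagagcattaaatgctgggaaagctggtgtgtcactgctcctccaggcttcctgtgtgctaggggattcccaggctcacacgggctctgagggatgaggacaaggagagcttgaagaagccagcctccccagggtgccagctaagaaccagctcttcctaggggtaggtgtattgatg
The windows of Col4a1 and Col4a2 come from opposite strands and shared 78 bases, since the genes start head to head. Windows were found for 33 of the 42 members. CCAAT was present in 36.1% of the 36 member windows against 37.4% of all 32851 windows, and TATAAA in 13.9% against 13.6%. The Col4a1 and Col4a2 windows were 74% and 73.7% G or C, and the Col3a1 window 37.7%. In gene order, Col3a1 also lies next to Col5a2, Col6a1 next to Col6a2, Col4a4 next to Col4a3, Col4a5 next to Col4a6, Col6a5 next to Col6a4 and Col9a1 next to Col19a1.

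Values are log2 expression, and a log2 value of 4 was taken as the floor of detection. A probe set was tested where 2 or more arrays of any group exceeded the floor. In this way 22 members were tested in lacrimal glands, 25 in salivary glands and 26 in either, and 15 and 19 of them met this in every group of the gland. The other 16 members met it nowhere: Col2a1, Col11a1, Col11a2 and Col24a1 of the fibrillar class, Col4a3 and Col4a6, Col6a5, the network genes Col8a2 and Col10a1, the fibril-associated Col9a1, Col9a2, Col19a1 and Col22a1, the transmembrane Col13a1 and Col25a1, and Col26a1. Markers of cartilage (5 genes) and of skeletal muscle (7 genes) met it nowhere either. "Called" below means a fold of 2 or more and an adjusted p under 0.05 (limma, Benjamini-Hochberg over all probe sets tested). Levels of different genes cannot be compared on these arrays, so each comparison is within a gene.

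Some lacrimal arrays stood apart. Amy1, which encodes salivary amylase, exceeded a log2 value of 8 on 8 lacrimal arrays: 2 of the untreated week 16 group, 2 of the week 16 LTBR-Ig group, 2 of the week 12 LTBR-Ig group, 1 of the week 12 MOPC-21 group and 1 of the untreated week 12 group. Values without those arrays stand beside the results they bear on most. At week 8, marker genes of the lacrimal gland averaged 10.46 in lacrimal and 8.27 in salivary glands, and markers of salivary acini and ducts 4.93 and 12.21.

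At week 8, most collagen genes were lower in lacrimal than in salivary glands of untreated mice. The comparison asks which collagens distinguish the glands at the youngest age sampled. Of 26 members tested, 14 were called lower and 1 higher, where 11.6% and 7.19% of all probe sets were called lower and higher. The median difference over the tested members was -1.09 on the log2 scale against -0.03 over all probe sets tested, and over all 42 members without the filter it was -0.28 against 0.04. By class, 4 of 7 fibrillar, all 4 tested type IV, 3 of 4 type VI and both multiplexin genes were lower. Col4a4, Col8a1, Col20a1 and Col23a1 passed the filter in no lacrimal group, so a lower lacrimal value was built into their selection, and Col4a4 and Col20a1 are among those called. Col6a4 passed in no salivary group.

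Col4a1, a chain of the main basement membrane collagen, measured 8.72, 8.43, 8.27 and 8.53 in the lacrimal arrays and 10.77, 11.37, 10.89 and 11.14 in the salivary arrays of week 8. The groups did not overlap and differed by -2.56 ± 0.24 (SE), a 5.89-fold difference (limma, adjusted p = 6.7e-13). Col4a2, its partner chain, differed by -1.97 ± 0.19 (adjusted p = 1.12e-12). Col15a1 and Col18a1, which encode multiplexins of basement membrane zones, differed by -2.28 ± 0.20 and -1.94 ± 0.19. Col6a1, a type VI chain, stood at 6.20, 6.42, 5.79 and 6.69 against 7.96, 8.47, 8.29 and 8.21, again without overlap.

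Col7a1, which encodes the collagen of anchoring fibrils beneath stratified epithelia, was the 1 member called higher. Its lacrimal arrays measured 7.92, 7.81, 7.94 and 8.02 and its salivary arrays 6.18, 6.35, 5.79 and 6.24, a difference of 1.78 ± 0.17 (adjusted p = 3.24e-13). Among chains of the major stromal fibers, Col1a1 differed by -1.34 ± 0.31 and Col1a2 by -1.04 ± 0.21, both called, and Col3a1 by -0.98 ± 0.26, under the fold minimum. Without lacrimal replicate 3 or salivary replicate 3 the Col1a2 difference was -0.80 or -0.96, under the fold minimum too.

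Other matrix lists differed in the same direction at this age. Of basement membrane partners, 10 of 12 tested were called lower in lacrimal glands, with the laminin chains Lama5 at -3.05 ± 0.20 and Lamb3 at -2.30 ± 0.20 and the linker Nid2 at -1.59 ± 0.13. Of collagen-making genes 8 of 16 were lower, of breakdown genes 5 of 8, of fibrous matrix partners 7 of 14, and of TGF-beta signals 4 of 8, and no collagen receptor was called. Of 9 fibroblast markers 6 were lower as well, with a mean level per array of 6.06 to 6.85 in lacrimal and 7.67 to 7.79 in salivary glands. Their part in the collagen difference was not tested, and in whole glands fewer cells of a type and less RNA per cell cannot be told apart.

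At week 16 fewer collagen genes distinguished the glands. Of 26 members, 7 were called lower and 2 higher in lacrimal glands, against 11.4% and 11.9% of all probe sets. Among these calls, Col4a4 (-1.25 ± 0.21) and Col8a1 had passed the filter only in salivary glands and Col6a4 only in lacrimal glands. The direction of these calls was therefore built into their selection. The median difference was -0.45 against 0.02. Col4a1 and Col4a2 differed by -2.25 ± 0.24 and -1.87 ± 0.19, and Col15a1 and Col18a1 by -1.31 ± 0.20 and -1.31 ± 0.19. Col1a1 was still called lower, at -1.23 ± 0.31 (limma, adjusted p = 0.000736), and differed by -1.44 ± 0.38 without the arrays high in Amy1. Col3a1 differed by 0.02 ± 0.26 (limma, adjusted p = 0.953) and Col1a2 by -0.21 ± 0.21 (adjusted p = 0.403), neither called. Col7a1 was again higher, by 2.27 ± 0.17. Col8a1, a network-forming chain, was called at -1.37 ± 0.25, from 3.32 ± 0.06 (SD, n = 4) in lacrimal glands, below the floor, and 4.69 ± 0.20 in salivary glands, through which alone it had passed the filter. Without the arrays high in Amy1, 10 members were called, with no call lost, and Col4a1 differed by -2.32 ± 0.24, Col4a2 by -1.80 ± 0.19, Col15a1 by -1.32 ± 0.23 and Col7a1 by 2.32 ± 0.18.

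Col6a4, the alpha 4 chain of type VI collagen, measured 4.71, 5.33, 5.15 and 5.94 in lacrimal arrays of week 16 and 2.85, 2.89, 2.72 and 3.13 in salivary arrays, the latter all below the floor. The difference was 2.39 ± 0.31 (limma, adjusted p = 4.8e-09), and 2.65 ± 0.37 without the arrays high in Amy1. Col6a4 had passed the filter only through lacrimal groups, so a higher lacrimal value was built into its selection. At week 8 Col6a4 had measured 2.95 ± 0.16 and 3.01 ± 0.26 (SD, n = 4 each), below the floor in both glands.

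**Figure D1:**
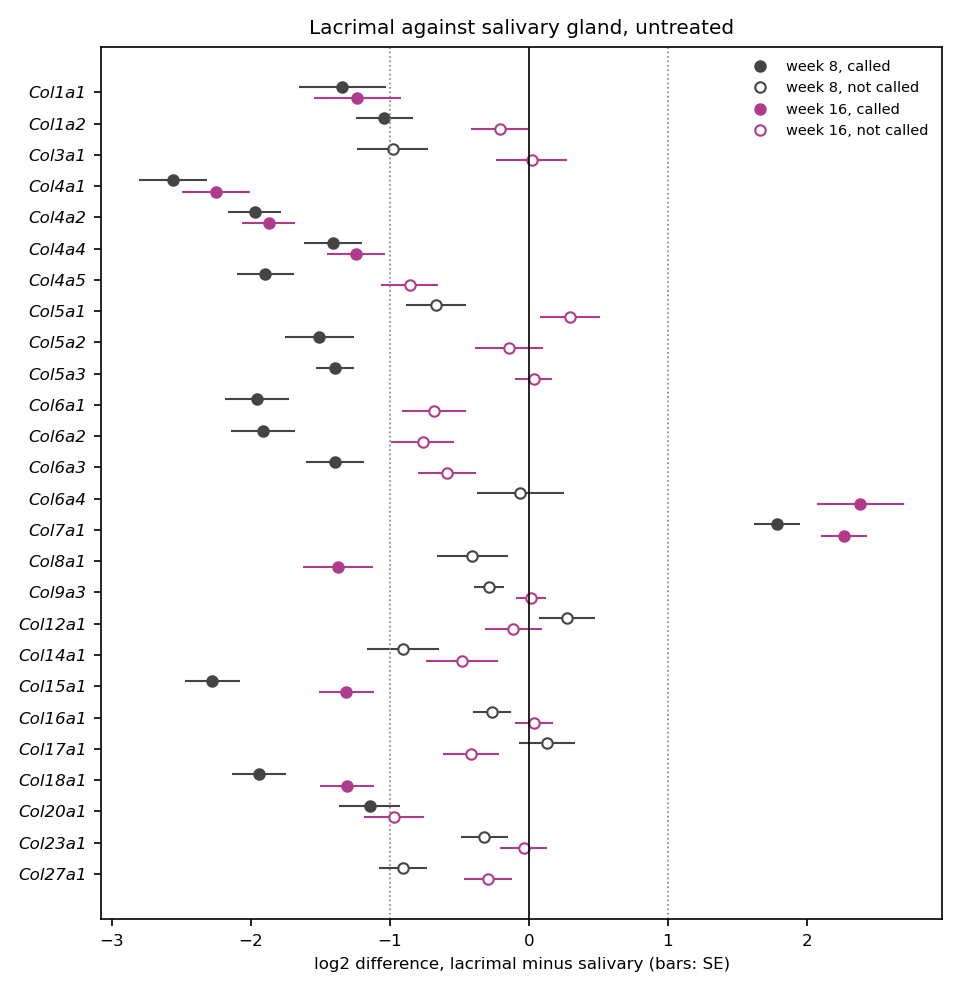
Differences between glands of untreated mice for the 26 collagen genes tested in either gland. The x axis gives the log2 difference, lacrimal minus salivary, at weeks 8 and 16, with SE bars, and filled points were called. Col4a1 and Col4a2 lie far to the left at both ages, Col7a1 to the right at both, and Col6a4 to the right at week 16.

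From week 8 to week 16 of age, collagen genes fell in both glands of untreated mice. In salivary glands 14 of 25 tested members were called lower and 0 higher, where 2.85% of all probe sets were called lower and 841 of 19617 higher. In lacrimal glands 8 of 22 were called lower and 1 higher, where 4.49% were lower and 12.1% higher. The median change was -1.47 over tested members of salivary glands against -0.04 over all probe sets, and -0.83 against -0.07 in lacrimal glands. Col5a3 and Col12a1 passed the filter in both glands, and Col18a1 in lacrimal glands, only through week 8, so a lower value at week 16 was built into their selection and into these counts. Over all 42 members without the filter the medians were -0.41 against 0.01 in salivary and -0.23 against -0.06 in lacrimal glands.

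With the probe set that stood for each gene, fibrillar genes had the largest falls in salivary glands. In lacrimal glands Col1a1 was followed by Col5a3 and the basement membrane genes Col4a1 and Col4a2. The lacrimal order depended on the probe set. Others that passed the filter there changed by -2.74 for Col1a2, -2.20 for Col3a1, -2.20 for Col5a2 and -1.52 for Col4a1. Col1a1, the alpha 1 chain of type I collagen, measured 9.51, 9.93, 10.10 and 9.90 in salivary arrays of week 8 and 7.09, 7.10, 6.99 and 7.28 at week 16, a change of -2.75 ± 0.15 (SE), or 6.70-fold (limma, adjusted p = 1.63e-13). In lacrimal glands Col1a1 measured 8.40, 8.80, 7.81 and 9.06 at week 8 and 5.98, 6.20, 5.33 and 6.02 at week 16, a change of -2.64 ± 0.40 (6.22-fold, adjusted p = 6.88e-06). Every array of the older age lay below every array of the younger in both glands. Without the lacrimal arrays high in Amy1 the lacrimal change was -2.84 ± 0.52. Col1a2, the alpha 2 chain of the same fiber, changed by -2.42 ± 0.14 in salivary and -1.59 ± 0.25 in lacrimal glands. Without the arrays high in Amy1, 12 members were called in lacrimal glands with all 9 calls kept, and the changes were -1.71 ± 0.31 for Col1a2, -1.78 ± 0.38 for Col3a1, -1.91 ± 0.19 for Col5a3, -1.90 ± 0.29 for Col4a1 and -1.66 ± 0.23 for Col4a2.

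Col3a1, which encodes the type III collagen of reticular fibers, measured 13.13, 13.48, 13.76 and 13.68 in salivary arrays of week 8 and 10.81, 10.82, 10.86 and 10.69 at week 16. In lacrimal glands it measured 12.52, 12.90, 11.92 and 12.79, then 10.84, 10.92, 10.43 and 11.07. The changes were -2.72 ± 0.15 and -1.72 ± 0.32, without overlap of ages in either gland. Type V chains, which regulate fibril diameter, fell as well: Col5a1 and Col5a2 changed by -1.97 ± 0.14 and -2.32 ± 0.19 in salivary glands. Col5a3 went from 6.15 ± 0.28 (SD, n = 4) to 2.86 ± 0.13 in salivary glands and from 4.76 ± 0.21 to 2.89 ± 0.07 in lacrimal glands, below the floor at week 16. Its fitted folds, 9.81 and 3.65, therefore rest on values near background.

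Basement membrane chains fell in both glands. Col4a1 changed by -2.14 ± 0.15 in salivary and -1.83 ± 0.30 in lacrimal glands, and Col4a2 by -1.84 ± 0.13 and -1.74 ± 0.23. Col4a1 in lacrimal glands went from 8.72, 8.43, 8.27 and 8.53 to 6.61, 6.84, 6.67 and 6.50. Col4a2 there went from 7.31, 6.94, 6.84 and 7.17 to 5.09, 5.40, 5.33 and 5.47, and neither gene had overlapping groups. Col4a5, an X-linked chain of such networks, changed by -2.05 ± 0.19 in salivary glands and by -1.01 ± 0.22 in lacrimal glands.

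The lacrimal changes of Col4a5 and Col5a1 lay at the fold minimum, and were -1.22 ± 0.24 and -1.01 ± 0.27 without the arrays high in Amy1. For Col5a1 this concerns the probe set that stood for the gene. Its other probe sets that passed the lacrimal filter changed by -1.63 and -2.07. The Col4a5 call was lost without week 8 replicate 1 (-0.98) or 4 (-0.89) and without week 16 replicate 3 (-0.93) or 4 (-0.95). The Col5a1 call was lost without week 8 replicate 1 (-0.97), 2 (-0.98) or 4 (-0.88) and without week 16 replicate 2 (-0.98) or 4 (-0.99). Both genes stayed lower at week 16 in each case.

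Type VI chains around cells were called in salivary glands: Col6a1, Col6a2 and Col6a3 changed by -1.77 ± 0.12, -2.11 ± 0.15 and -1.76 ± 0.15. In lacrimal glands their changes of -0.50 ± 0.29, -0.96 ± 0.28 and -0.96 ± 0.25 were not called. Without the arrays high in Amy1, Col6a2 and Col6a3 were called lower there, and Col6a1 was not. A moderated F test over all untreated ages, with no fold minimum, called each of these chains in lacrimal glands (adjusted p = 0.00993, 0.000603 and 1.7e-05). Their lacrimal differences from week 8 at week 12 were -1.21, -1.57 and -1.88. Of the remaining salivary members, Col15a1 changed by -1.47 ± 0.17 and Col14a1, a fibril-associated collagen, by -1.09 ± 0.19. Col18a1 changed by -0.69 ± 0.19 in salivary and -0.05 ± 0.19 in lacrimal glands, neither called. Col7a1, Col9a3, Col12a1, Col16a1, Col17a1 and Col27a1 were tested in both glands and called in neither.

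Col6a4 was the 1 member called higher. It passed the filter only through lacrimal groups of week 12 and later, so a rise was built into its selection. Its untreated lacrimal arrays measured 2.81, 2.88, 3.18 and 2.93 at week 8, 3.69, 4.12 and 5.21 at week 12, 4.35, 5.29, 4.63 and 4.82 at week 14 and 4.71, 5.33, 5.15 and 5.94 at week 16. The week 16 arrays all lay above the week 8 arrays, with a difference of 2.33 ± 0.41 (SE; limma, adjusted p = 3.94e-05), and of 2.59 ± 0.52 without the arrays high in Amy1. A second probe set of Col6a4 was not tested, being under the floor, and differed by -0.07.

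**Figure D2:**
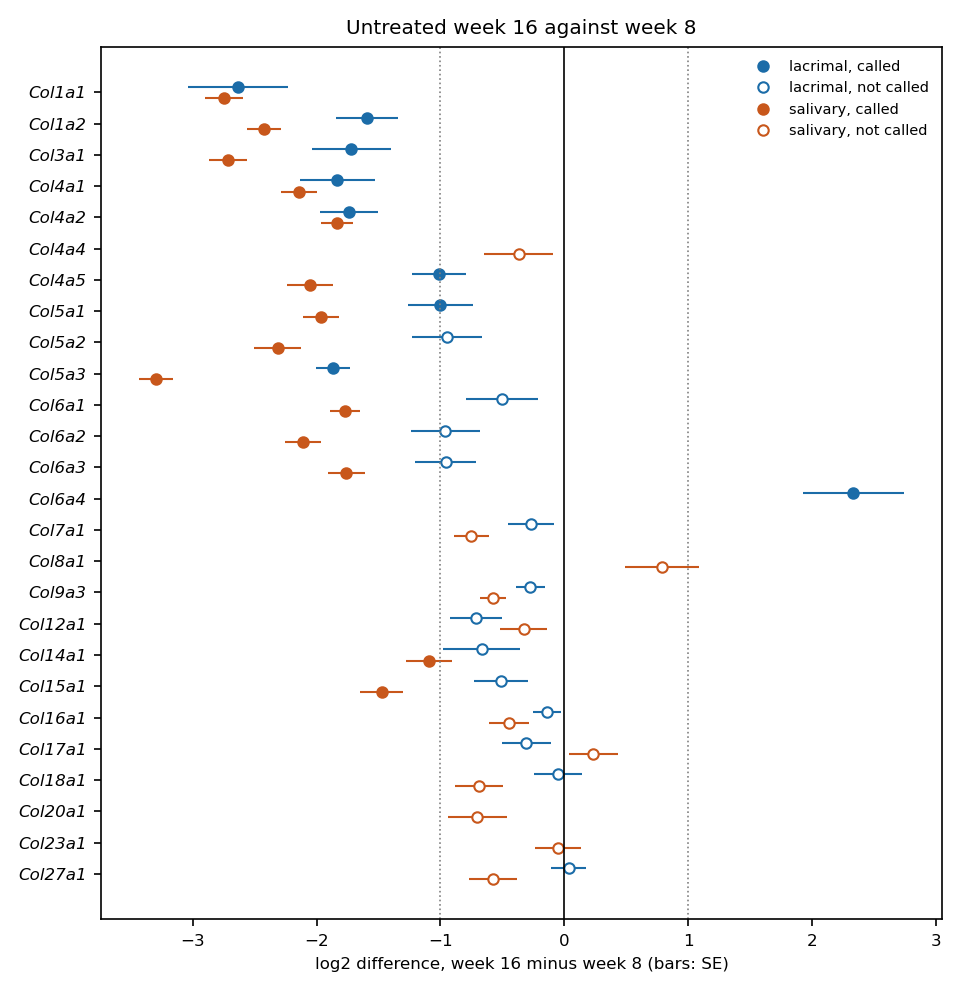
Changes from week 8 to week 16 in untreated glands. The x axis gives the log2 difference, week 16 minus week 8, for lacrimal and salivary glands with SE bars, and filled points were called. Nearly all points lie left of 0, and Col6a4 of the lacrimal gland lies at 2.33.

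The lower levels were already present at week 12. Col1a1 in lacrimal glands differed from week 8 by -3.21 at week 12, -3.08 at week 14 and -2.64 at week 16, and in salivary glands by -2.77 at week 12, -2.53 at week 14 and -2.75 at week 16. Over the tested members the median differences from week 8 at weeks 12, 14 and 16 were -1.21, -0.98 and -0.83 in lacrimal glands and -1.54, -1.46 and -1.47 in salivary glands. A moderated F test over the 4 ages, with no fold minimum, called 16 of 22 members in lacrimal glands against 52.9% of all probe sets, and 19 of 25 in salivary glands against 36%. The lacrimal number was 15 without the arrays high in Amy1. Week 8 was a single group of arrays in each gland, so its age and anything else particular to those arrays cannot be told apart.

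**Figure D3:**
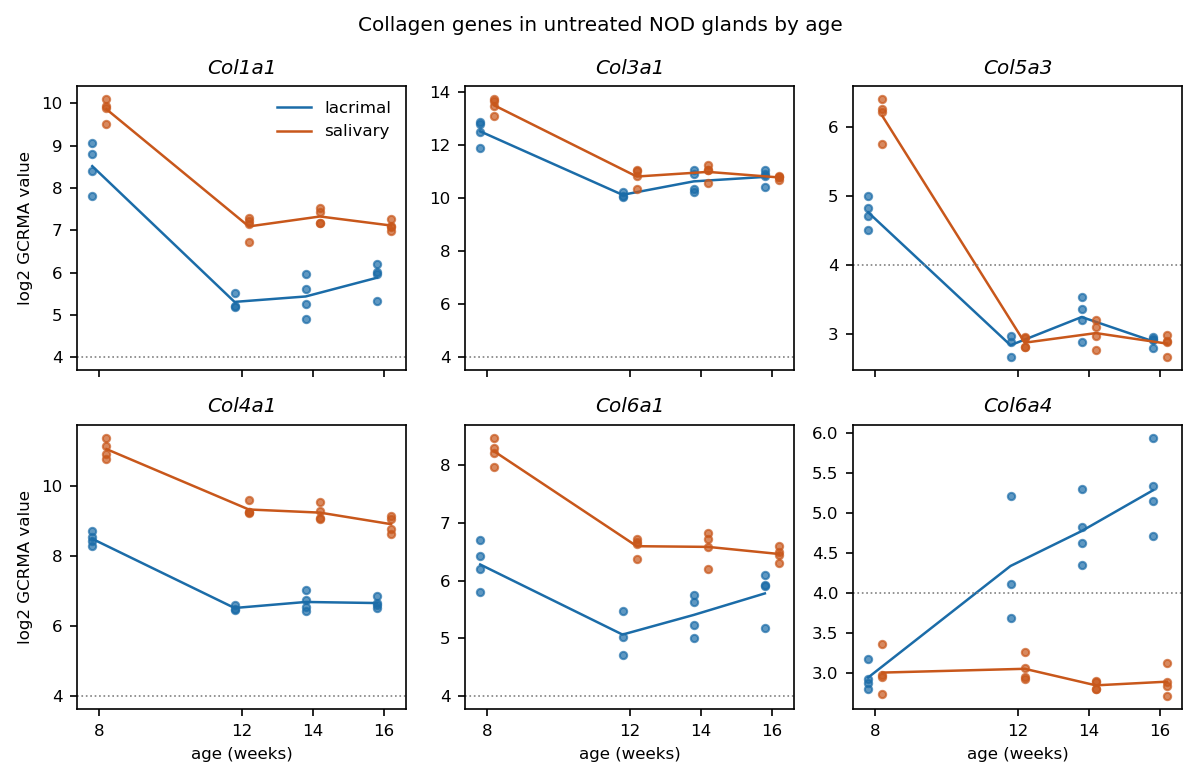
Levels of 6 collagen genes in untreated glands. The x axis is age in weeks and the y axis the log2 value, points are arrays, lines join group means and the dotted line is the floor of 4. Col1a1, Col3a1, Col4a1, Col5a3 and Col6a1 have their highest mean at week 8 in both glands, and the mean of Col6a4 climbs in lacrimal glands.

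The age change differed between glands for 6 of 26 members, each with a lacrimal change less negative or more positive than the salivary one. Of all probe sets tested, 12.6% were called in this direction. The differences were 2.45 ± 0.44 for Col6a4 (limma, adjusted p = 1.42e-05), 1.43 ± 0.19 for Col5a3, 1.37 ± 0.35 for Col5a2, 1.27 ± 0.32 for Col6a1, 1.15 ± 0.32 for Col6a2 and 1.04 ± 0.29 for Col4a5. Col5a3 was below the floor in both glands at week 16, at 2.89 ± 0.07 and 2.86 ± 0.13 (SD, n = 4 each), so its value restates the gap between glands at week 8. Col6a4 was below the floor in salivary glands at both ages and had passed the filter only through later lacrimal groups. The size of the difference depended on the probe set. Another Col5a2 probe set that passed the filter changed by -2.20 in lacrimal and -3.03 in salivary glands. Another of Col6a2 changed by -0.77 and -2.55. For Col1a1, Col4a1 and Col4a2 the differences of 0.11 ± 0.44, 0.31 ± 0.34 and 0.10 ± 0.27 were not called. Without salivary week 8 replicate 1 the number called was 10. Without the arrays high in Amy1 it was 4, with Col4a5 at 0.84 and Col6a2 just under the fold minimum. Without lacrimal week 8 replicate 3 the calls for Col4a5 (0.90) and Col6a2 (0.87) were lost. The Col4a5 call was also lost without salivary week 8 replicate 3 (0.99) or 4 (0.99), lacrimal week 16 replicate 2 (0.94) and salivary week 16 replicate 1 (0.94) or 4 (0.94).

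Other genes of the collagen pathway moved unevenly with age. Of collagen-making genes, 6 of 15 tested in salivary glands fell and 0 rose, with Serpinh1, the collagen chaperone, at -2.06 ± 0.10, Pcolce, an enhancer of procollagen cleavage, at -1.71 ± 0.11 and Sparc, a collagen-binding protein, at -1.99 ± 0.14. In lacrimal glands 2 of 14 fell, Sparc at -1.87 ± 0.22 and Serpinh1 at -1.36 ± 0.20, and 2 rose, among them P4ha1, a prolyl hydroxylase subunit, at 1.69 ± 0.33. Of basement membrane partners, 5 of 12 fell in salivary glands, with the nidogens Nid2 and Nid1 at -2.28 ± 0.12 and -1.85 ± 0.14 and the laminin chain Lamc1 at -1.94 ± 0.21, and 1 rose. In lacrimal glands 0 of 10 were called lower and 0 higher, although Col4a1 and Col4a2 were called lower there. Of the 10, 8 had a change below 0, with a median of -0.26. The F test over the 4 ages, with no fold minimum, called 4 of them, all lower at week 16, against 52.9% of all probe sets. The list mean per lacrimal array was 4.48 to 4.78 at week 8 and 4.24 to 4.41 at week 16.

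Of collagen breakdown genes, 5 of 8 fell in salivary glands, with the matrix metalloproteinases Mmp2 and Mmp14 at -1.65 ± 0.18 and -1.42 ± 0.18, and 1 rose, the inhibitor Timp3 at 1.91 ± 0.16. In lacrimal glands 2 of 7 rose and 0 fell, with Fap, a fibroblast protease, at 1.35 ± 0.29 and Mmp3 at 1.18 ± 0.46. Of fibrous matrix partners, 4 of 14 fell in salivary glands and 0 rose, and in lacrimal glands 1 of 11 fell and 2 rose. Elastin (Eln) was called lower in both, at -3.11 ± 0.16 and -1.61 ± 0.27, whereas Bgn and Dpt, which encode biglycan and dermatopontin, rose in lacrimal glands at 1.53 ± 0.30 and 1.44 ± 0.39.

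Of TGF-beta signals, 2 of 7 rose in lacrimal glands, the ligand Tgfb1 at 2.96 ± 0.41 and the receptor Tgfbr2 at 1.91 ± 0.31. In salivary glands 2 of 8 rose, Tgfb2 at 1.98 ± 0.14 and Tgfb3 at 1.13 ± 0.34, where 841 of all 19617 probe sets were called higher. Of collagen receptors, 1 of 5 fell in lacrimal glands, the integrin chain Itga1 at -1.19 ± 0.18, and 1 rose, the leukocyte receptor Lair1 at 1.88 ± 0.43, and in salivary glands 0 of 4 fell and 0 rose.

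Markers of cell types changed over the same ages. In lacrimal glands 9 of 9 leukocyte markers rose, and their mean level per array ranged from 3.65 to 4.45 at week 8 and from 8.00 to 8.68 at week 16. Of 9 fibroblast markers there, 3 rose and 0 fell, with a mean level of 6.06 to 6.85 and then of 7.40 to 7.92. Markers of salivary acini and ducts ranged from 4.79 to 5.12 per lacrimal array at week 8 and from 4.37 to 10.34 at week 16. In salivary glands 3 of 9 fibroblast markers fell and 0 rose, with averages of 7.73 at week 8 and 6.94 at week 16, and 4 of 6 myoepithelial markers rose. Of 7 endothelial markers 5 were tested, and their list averaged 4.15 to 4.43 per lacrimal array at week 8 and 3.98 to 4.14 at week 16, and 4.66 to 4.95 and then 4.07 to 4.30 per salivary array. These levels were lower at week 16 without overlap in either gland, with Emcn called lower and Pecam1 higher in lacrimal glands and Esam lower in salivary glands. The mean of the fibroblast list was lower with age in salivary and higher in lacrimal glands, and most tested fibrillar collagens were lower in both. That list was Pdgfra, Pdgfrb, Dcn, Lum, Dpt, Thy1, Vim, Mfap5 and Pi16, and Dcn, Lum, Dpt and Mfap5 were also counted as fibrous matrix partners. How far leukocytes contributed to its lacrimal rise was not tested. The part of these cell types in the collagen changes was not tested.

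After 8 weeks of LTBR-Ig, 1 collagen gene differed from MOPC-21 in lacrimal glands. The comparison asks whether blocking the receptor shifts matrix genes. Of 22 members tested, 1 was called lower, Col6a4, and 0 higher, where 5.54% of all probe sets were called lower. The median difference over the tested members was 0.05 against -0.05 over all probe sets. Col1a1 differed by 0.35 ± 0.40, Col1a2 by -0.07 ± 0.25, Col3a1 by 0.10 ± 0.32, Col4a1 by -0.02 ± 0.30 and Col4a2 by -0.04 ± 0.23 (LTBR-Ig minus MOPC-21, SE). Col6a1, Col15a1 and Col18a1 differed by -0.46 ± 0.29, 0.31 ± 0.22 and -0.22 ± 0.19. None of these 8 passed, which does not show that their levels were equal.

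Col6a4 measured 5.18, 4.42, 6.25 and 4.39 in lacrimal arrays of MOPC-21 and 4.14, 3.29, 2.95 and 3.15 in those of LTBR-Ig at week 16. Of the LTBR-Ig arrays 3 of 4 lay below the floor. Col6a4 had passed the filter only through untreated and MOPC-21 groups, so a lower value with LTBR-Ig was built into its selection. The groups did not overlap, and the difference was -1.68 ± 0.41 (limma, adjusted p = 0.0105). Against untreated mice of week 16 it was -1.90 ± 0.41 (adjusted p = 0.0151), and Col6a4 was again the 1 member called, with 3.77% of all probe sets lower. Both comparisons use the same LTBR-Ig arrays. Between MOPC-21 and untreated mice 0 of 22 members were called (limma, 0% of all probe sets), and 0 reached an unadjusted p under 0.05 (411 of all 20077 probe sets).

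The call for Col6a4 depended on single arrays and settings. Without MOPC-21 replicate 3 the difference from MOPC-21 was -1.28 ± 0.40 (limma, adjusted p = 0.0806), and without the arrays high in Amy1 it was -1.35 ± 0.52 (adjusted p = 0.251). With only the arrays of both groups in the fit the adjusted p was 0.059. With the mean of its probe sets the difference was -0.72 ± 0.21, under the fold minimum. Against untreated mice the adjusted p was 0.0846 without untreated replicate 4 (-1.68), 0.0735 without LTBR-Ig replicate 3 (-1.76) and 0.337 without the arrays high in Amy1. Each of these alternatives kept a negative difference.

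Cell type markers also differed with LTBR-Ig at week 16 in lacrimal glands. Of 9 leukocyte markers, 8 were lower with LTBR-Ig at week 16, with a mean level per array of 5.97 to 7.86 against 7.85 to 9.17 with MOPC-21. Markers of salivary acini and ducts went the other way from Col6a4. They averaged 9.91 with LTBR-Ig and 4.90 with MOPC-21, and these groups did not overlap. The LTBR-Ig arrays (8.32 to 11.84) did overlap the untreated arrays of week 16 (4.37 to 10.34). At week 12 the leukocyte markers averaged 7.61 with LTBR-Ig and 7.74 with MOPC-21 in lacrimal glands. In salivary glands, where Col6a4 did not pass the floor in any group, the leukocyte markers averaged 3.91 to 4.01 per untreated array of week 16. The part of these cell types in the level of Col6a4 was not tested.

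The effect of LTBR-Ig at week 16 differed between glands for 1 of 26 members, Col6a4, at -1.98 ± 0.44 (limma, adjusted p = 0.0112), with 2.61% of all probe sets called in this direction. All salivary arrays of Col6a4 were below the floor, so this value restates the lacrimal difference. Its adjusted p was 0.0797 without lacrimal MOPC-21 replicate 3 and 0.135 without the arrays high in Amy1. Of the other lists, the TGF-beta signals held 2 calls against MOPC-21 in lacrimal glands at week 16, Tgfb1 at -1.59 ± 0.41 and Tgfb2 at 1.05 ± 0.33. Those of collagen making, breakdown, basement membrane, fibrous matrix and receptors held none. In that comparison 68 of all 20077 probe sets were called higher and 5.54% lower. Against untreated mice 0 of 7 TGF-beta signals were called higher, so the Tgfb2 call was not repeated, and 2 were called lower. The difference between glands held 0 calls in that list.

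**Figure D4:**
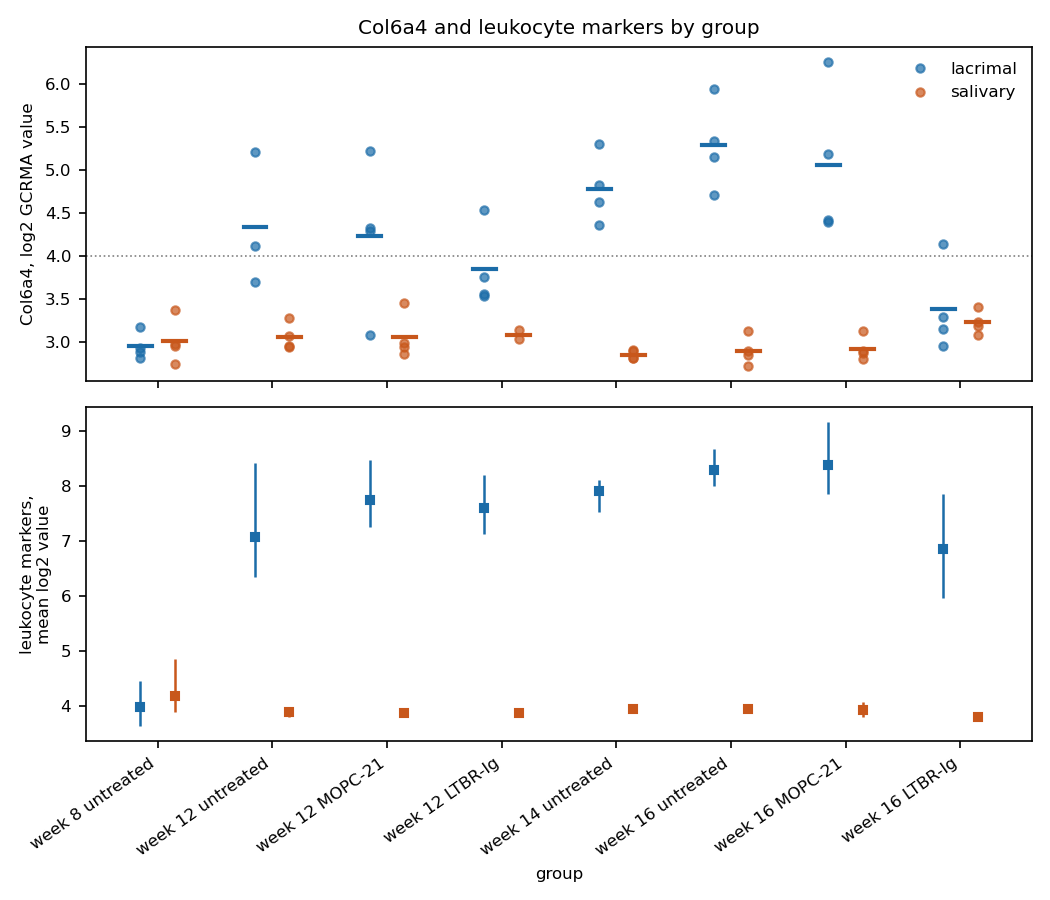
Col6a4 and leukocyte markers in all 16 groups. One panel gives the log2 value of Col6a4 on each array, with the floor at 4, and the other the mean log2 value of 9 leukocyte markers. In untreated lacrimal glands both are higher after week 8 than at week 8. In lacrimal glands of week 16 both have a lower mean with LTBR-Ig than with MOPC-21, and the Col6a4 arrays with LTBR-Ig overlap those of week 8. Both are low in the salivary groups.

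After 4 weeks of LTBR-Ig, no collagen gene was called in lacrimal glands (0 of 22 by limma, 0.0498% of all probe sets). Of the 22, 4 reached an unadjusted p under 0.05, all with higher values under LTBR-Ig, where 1772 of all 20077 probe sets did in either direction. They were Col1a1 (1.28 ± 0.40, adjusted p = 0.287), Col1a2 (0.87 ± 0.25, adjusted p = 0.213), Col3a1 (0.85 ± 0.32, adjusted p = 0.403) and Col4a1 (0.79 ± 0.30, adjusted p = 0.417). The Col1a1 arrays were 6.70, 6.13, 5.57 and 6.32 with LTBR-Ig and 5.64, 5.38, 3.08 and 5.51 with MOPC-21. The groups overlapped, and replicate 3 of MOPC-21 lay far below the rest. Without it the differences were 0.67 ± 0.31 for Col1a1, 0.60 ± 0.24 for Col1a2, 0.51 ± 0.30 for Col3a1 and 0.41 ± 0.27 for Col4a1. Without the arrays high in Amy1 the Col1a1 difference was 1.29 ± 0.55.

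In salivary glands 0 of 25 members were called for LTBR-Ig at week 16 (limma, 0.0357% of all probe sets), with differences between -0.34 and 0.38. Of them 0 reached an unadjusted p under 0.05 (1121 of all 19617 probe sets). Col1a1 differed by -0.16 ± 0.15, Col3a1 by -0.10 ± 0.15, Col4a1 by 0.06 ± 0.15 and Col6a1 by -0.09 ± 0.12. At week 12, with 2 LTBR-Ig arrays, 1 of 25 members was called lower, where 0.0153% of all probe sets were. It was Col15a1, at 4.33 and 4.81 with LTBR-Ig against 5.86, 6.17, 5.64 and 5.26 with MOPC-21, a difference without overlap of -1.16 ± 0.21 (limma, adjusted p = 0.0316). Without LTBR-Ig replicate 3 the Col15a1 difference was -0.92 ± 0.27 (adjusted p = 0.223). With only both groups in the fit the adjusted p was 0.999, and with the replicate number as a block it was 0.0773. At week 16 Col15a1 differed by 0.25 ± 0.17.

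**Figure D5:**
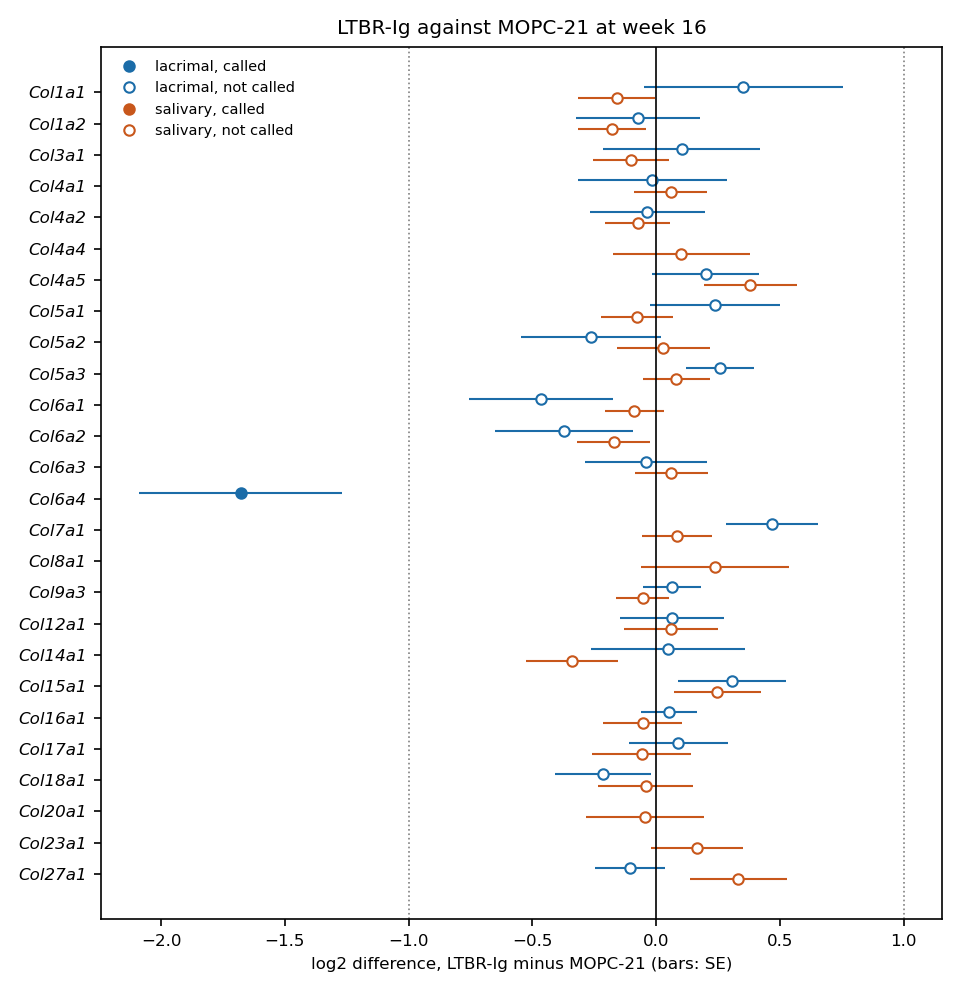
LTBR-Ig against MOPC-21 at week 16 for each collagen gene tested. The x axis gives the log2 difference, LTBR-Ig minus MOPC-21, for lacrimal and salivary glands with SE bars, and filled points were called. Apart from Col6a4 at -1.68, the points lie between -0.46 and 0.47.

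Chains that assemble into the same fiber or network varied together from array to array to different degrees. Deviations from group means were correlated for 6 pairs in each gland, 12 in all, with p from 100000 permutations and adjusted over the 12. In lacrimal glands (n = 31 arrays) Col1a1 and Col1a2 had r = 0.89 and rho = 0.88, and Col1a1 and Col3a1 r = 0.89 and rho = 0.88, each with an adjusted permutation p = 0.00012. Without the 2 arrays farthest from the median of Col1a1 the r values were 0.84 and 0.85. In salivary glands (n = 30) the Col1a1 and Col1a2 pair had r = 0.48 (permutation, adjusted p = 0.0357). Its rho of 0.44 did not pass (permutation, adjusted p = 0.0531). The Col1a1 and Col3a1 pair had r = 0.66 (permutation, adjusted p = 0.00379) and rho = 0.53 (adjusted p = 0.0194). Without the 2 farthest arrays the r values were 0.43 and 0.49.

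The neighbours Col4a1 and Col4a2 had r = 0.66 in salivary glands (permutation, adjusted p = 0.00468, rho = 0.64) and r = 0.16 in lacrimal glands (adjusted p = 0.38, rho = 0.39). Without the 2 farthest arrays r was 0.63 and 0.24, and without the arrays high in Amy1 the lacrimal pair had r = 0.37 and rho = 0.56. Col6a1 and Col6a2 had r = 0.67 in lacrimal glands (adjusted p = 0.00234) and r = 0.59 in salivary glands (adjusted p = 0.0133). The salivary r became 0.31 without the 2 farthest arrays and so rests on them. The salivary rho of 0.45 did not pass (permutation, adjusted p = 0.0513). Col6a1 and Col6a3 had r = 0.70 in lacrimal (adjusted p = 0.00092) and r = -0.07 in salivary glands (adjusted p = 0.707).

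Col5a1 and Col5a2 had r = 0.49 in lacrimal (permutation, adjusted p = 0.0373) and r = 0.39 in salivary glands (adjusted p = 0.0635). In lacrimal glands it was 0.36 without the 2 farthest arrays and 0.20 without the arrays high in Amy1. Differences between glands in these correlations were not tested.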

How the data were processed

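Gene expression was measured in 61 gland samples on Affymetrix whole-genome mouse arrays. The values deposited by the authors are log2 expression after GCRMA (named in the submitters' processing notes, version not given) of 45101 probe sets, and were used as deposited. Of these, 34958 carried a single gene symbol and only those were named. Groups came from the labels. Each tissue was fitted with limma 3.58.1 in R 4.3.3, with a mean per group over all its arrays and an intensity trend, and both tissues jointly where they were compared. Tests covered probe sets that exceeded 4 (log2) on 2 or more arrays of any group, 20077 in lacrimal glands, 19617 in salivary glands and 21626 in both. Per array, 37.3% to 41.4% of probe sets exceeded this value. The number of arrays limits the precision.

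The collagen genes and the other lists were chosen with earlier results of these data known. Named genes were Col1a1, Col1a2, Col3a1, Col4a1, Col4a2, Col6a1, Col15a1 and Col18a1, called members (up to 10 per comparison), and up to 3 called genes of each other list. Alternatives changed the filter, fold minimum, trend, probe set, centring, arrays and the replicate block. A filter on the mean over all arrays was added after seeing the data. Replicate numbers recur across groups, but same-numbered arrays did not deviate together in every pair, so arrays were not treated as paired.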

Additional observations from a re-analysis of the deposited data

Results flagged for a closer look

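For 11 named collagen genes in the groups of 4 arrays, 154 sets of values in all, 15 had 1 array far from the other three relative to the range of the group, where chance gives about 1 in 20. In lacrimal glands of week 12 with MOPC-21, replicate 3 was low for Col1a1 (3.08, the others 5.38 to 5.64) and Col15a1 (3.43, the others 4.14 to 4.17), replicate 1 was high for Col18a1 (3.91) and replicate 4 was low for Col7a1 (7.32). In those of week 12 with LTBR-Ig, replicate 3 was low for Col15a1 (3.63) and Col5a3 (2.78), and replicate 2 was high for Col18a1 (4.24). In those of week 16 with LTBR-Ig, replicate 3 was low for Col15a1 (3.93) and replicate 1 high for Col5a3 (3.36). In untreated lacrimal glands, replicate 2 of week 14 was high for Col15a1 (4.21) and Col7a1 (8.09), and replicate 4 of week 8 was high for Col15a1 (4.89). In salivary glands, untreated replicate 1 was high for Col4a1 at week 12 (9.59) and low for Col4a2 at week 14 (7.09), and LTBR-Ig replicate 4 of week 16 was high for Col18a1 (5.37). Several of the Col15a1, Col18a1 and Col5a3 values lie at or below the floor of 4.

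The age change from week 8 to week 16 differed between glands, by a test of the difference itself, for Col6a4 (2.45), Col5a3 (1.43), Col5a2 (1.37), Col6a1 (1.27), Col6a2 (1.15) and Col4a5 (1.04), as lacrimal minus salivary change on the log2 scale. The LTBR-Ig change at week 16 differed between glands for Col6a4 (-1.98). Col6a4 was below the floor in every salivary array, and Col5a3 in both glands at week 16.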

How the results depend on the processing

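Of 57 called pairs of a gene and a comparison, none changed sign under any alternative, including centring each array on its median. The counts of called members stayed within 1.5 times in 135 of 159 alternatives other than leaving out a replicate. Requiring a log2 value of 6 gave 5 members between glands at week 16, and 0 for LTBR-Ig against MOPC-21, against untreated mice and for its difference between glands. Without a fold minimum there were 14 between glands at week 16, 14 for the lacrimal age change and 13 for its difference between glands. A posterior probability in place of the adjusted p gave 2 for that difference, and 0 for all 3 lacrimal LTBR-Ig results at week 16 named above. The mean over all probe sets of a gene gave 0 for those 3 and for salivary week 12, as did leaving out the arrays high in Amy1 for those 3. With only the arrays compared, LTBR-Ig against MOPC-21 gave 0 at week 16 in lacrimal and 0 at week 12 in salivary glands. The filter on the mean over all arrays gave 0 for the difference between glands of the LTBR-Ig effect. For the other gene lists, the comparisons held 83 calls at a log2 value of 6 and 228 without a fold minimum.

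Leaving out each replicate in turn gave 4 to 10 members for the difference between glands of the age change, and 0 to 1 for each of LTBR-Ig against MOPC-21 and against untreated mice at week 16, its difference between glands, and salivary week 12. The lacrimal age count ran from 7 to 12 and the salivary count was 14 throughout. With the replicate number as a replicate block, 0 members were called for LTBR-Ig in salivary glands at week 12 (1 without the block), and every other count stayed within 1.5 times. Causes of these shifts were not tested.

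Genes near the floor of detection have folds that rest on background values, as for Col5a3 after week 8 and Col6a4 at week 8. Every count that touches week 8 rests on 4 arrays per gland. Second probe sets of a member that passed the filter moved in the same direction as the representative one with age in 9 of 9 lacrimal and 14 of 14 salivary cases. Among those that did not pass, the lacrimal ones of Col6a4, Col14a1, Col18a1 and Col27a1 and the salivary ones of Col4a4, Col5a3, Col12a1 and Col23a1 had the opposite sign, with changes near 0.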
